A study of Rattus norvegicus with 18 samples.

Results

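The peroxisome proliferator-activated receptor gamma gene (Pparg), the fatty acid-binding protein 4 gene (Fabp4) and the lipoprotein lipase gene (Lpl) are 3 genes of the adipocyte. They were chosen by name and Ensembl identifier and not by a rule on their values, though earlier results of these data were known. They are 3 of the 32883 genes counted in visceral white adipose tissue (vWAT). vWAT was taken from the abdominal cavity of 18 male rats and its RNA was sequenced. The rats formed 3 groups of 6 by strain and drinking water, with 1 library per rat. They were housed 3 to a cage, but which rats shared a cage is not stated. Every test below therefore took the rats as independent, and cage and treatment could not be separated. The WKY group held 6 normotensive Wistar-Kyoto rats, for which neither age nor drinking regimen is stated separately. The SHR-Water group held 6 spontaneously hypertensive rats (SHRs) on tap water, and the SHR-TMAO group 6 SHRs whose water contained 1 g/L trimethylamine N-oxide (TMAO). The SHRs were 7 to 8 weeks old at the start and were treated for 22 weeks. No group combined the WKY strain with TMAO, so strain and treatment cannot be told apart between SHR-TMAO and WKY.

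PPARG is a nuclear receptor that binds DNA as a partner of the retinoid X receptors and is the master regulator of fat cell formation. Fabp4 and Lpl are textbook targets of it in adipocytes. FABP4 (also named aP2) carries fatty acids inside the cell and is among the most abundant proteins of the fat cell. LPL is secreted by adipocytes and moved to the capillary wall, where it releases fatty acids from the triglycerides of circulating lipoproteins, so that they can be taken up and stored. FABP4 is also made in capillary endothelium and macrophages, and LPL in muscle and macrophages, so in a piece of whole tissue their mRNA need not come from adipocytes alone. In bulk tissue, fewer cells of a type and less RNA per cell cannot be told apart.

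In the Rnor_6.0 annotation used for counting, Pparg (ENSRNOG00000008839) lies on the plus strand of chromosome 4, from 147274107 to 147399380, with 10 separate exon blocks and 2294 bases of exon. Fabp4 (ENSRNOG00000010805) lies on the plus strand of chromosome 2, from 93792601 to 93797305, with 4 exon blocks. It is the shortest of the 3, with 667 bases of exon. Lpl (ENSRNOG00000012181) lies on the minus strand of chromosome 16, from 22537056 to 22561496, with 10 exon blocks and 3671 bases of exon. No other annotated gene overlaps any of the 3 on either strand, and RefSeq places the genes of these names on the same chromosomes.

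Pparg is read from alternative promoters, which give the widely expressed and the adipocyte-enriched form of the receptor. RefSeq lists 2 start sites for it in the GRCr8 assembly, 57714 bases apart on the plus strand. The count deposited for Pparg is the sum over all its exons, so reads from the 2 starts cannot be told apart in the values below. The 250 bases before each start are shown because both windows stand behind that single value. Capitals mark matches to the letters GGGCGG (GC box) or CCAAT on either strand, where neighbouring matches run together.
Pparg, first start, chr4:150096808-150097057 of GRCr8: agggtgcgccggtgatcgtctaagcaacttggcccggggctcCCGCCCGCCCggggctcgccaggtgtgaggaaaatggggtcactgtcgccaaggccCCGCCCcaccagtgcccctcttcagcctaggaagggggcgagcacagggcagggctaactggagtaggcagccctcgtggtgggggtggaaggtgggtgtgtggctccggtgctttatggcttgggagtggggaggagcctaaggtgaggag
Pparg, second start, chr4:150154522-150154771 of GRCr8: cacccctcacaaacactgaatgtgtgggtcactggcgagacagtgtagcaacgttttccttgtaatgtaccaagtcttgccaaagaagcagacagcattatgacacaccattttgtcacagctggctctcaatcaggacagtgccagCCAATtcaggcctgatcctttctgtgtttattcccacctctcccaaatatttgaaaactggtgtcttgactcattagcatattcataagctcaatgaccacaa
The first window held 3 matches to the GC box, 208, 204 and 152 bases before the start, and none to CCAAT. The second held 1 match to CCAAT, 103 bases before the start, and none to the GC box. Of all 33469 promoter windows of this length, 30.5% held the GC box letters and 34.0% held CCAAT. Neither window held the nuclear receptor half-site AGGTCA (in 14.1% of windows), its direct repeat, AGGTCA followed by any base N and AGGTCA again (0.0508%), which contains the half-site, TATAAA (12.9%) or TTGCGCAA (0.140%), and both strands were searched.

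Library totals lay between 10774133 and 18874161 counts. The libraries also differed in how counts depended on gene length, given here as Spearman's rho, across 13325 expressed genes, between exon length and how far a gene lay from its own average over all rats. In the text this rho is called the gene length trend, and a positive value means that long genes were relatively high in that library. It lay between -0.400 and 0.258 among WKY rats, between -0.205 and 0.440 among SHR-Water rats and between -0.349 and 0.108 among SHR-TMAO rats. Genes of the mitochondrial genome took from 7.08% of the counts in WKY replicate 4 to 28.5% in SHR-Water replicate 1.

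Per length, the order of the 3 genes was the same in every rat. Levels per length are given as FPKM, which were computed here by scaling the deposited counts by exon length and library total. Fabp4 had 30538 ± 7460 FPKM in WKY (SD, n = 6 in this and all groups), 22664 ± 4163 for SHR-Water and 42077 ± 13986 for SHR-TMAO. This made it the gene with the highest mean FPKM of all 32883 in WKY and in SHR-TMAO, and the gene of rank 6 in SHR-Water. Within single rats its rank lay between 1 and 9. Lpl followed with 2569 ± 389 FPKM in WKY, 2109 ± 427 for SHR-Water and 2171 ± 333 for SHR-TMAO, at ranks 37, 36 and 40. Pparg, which codes for a transcription factor, was lower, at 92.4 ± 27.6, 88.0 ± 15.7 and 114.6 ± 29.6 FPKM, and at ranks 875, 829 and 713. Fabp4 alone took from 1.29% of all counts of a library, in SHR-Water replicate 2, to 4.24%, in SHR-TMAO replicate 4. The lowest of the genes, Pparg, still had 2104 to 6294 counts per rat.

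Levels are given as CPM scaled by TMM normalization, that is, counts scaled to a common library total that is adjusted for composition. The scaling factors of these levels were computed over all 18 rats. The edgeR log2 fold changes below used factors computed anew on the rats of the 2 groups compared, so they need not equal differences between these levels. For Pparg, TMM-normalized CPM in WKY had a lowest value of 139.9, a median of 200.4 and a highest value of 302. In SHR-Water these were 153, 187 and 252, and in SHR-TMAO 164, 270.0 and 335. All 3 groups overlapped. In SHR-TMAO, 4 of 6 rats lay above every SHR-Water rat, while SHR-TMAO replicate 5 lay among the low values of SHR-Water.

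For Fabp4, TMM-normalized CPM in WKY had a lowest value of 13273, a median of 19377 and a highest value of 32092. In SHR-Water the values were 11748, 13910.3 and 19864, and in SHR-TMAO 16480.5, 26375 and 44105. Of the SHR-TMAO rats, 5 of 6 were above every SHR-Water rat. The exception was SHR-TMAO replicate 1, which was below 2 SHR-Water rats, replicates 1 and 6. WKY lay between and overlapped both, with WKY replicate 4 the highest of its group.

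Lpl was the steadiest of the 3 genes across rats. Its TMM-normalized CPM in WKY had a lowest value of 6974, a median of 9443 and a highest value of 11459. In SHR-Water they were 6233, 7474.5 and 8550.5, and in SHR-TMAO 6172, 8727 and 10325. In WKY, 5 of 6 rats were above every SHR-Water rat, and WKY replicate 3 was the exception. SHR-TMAO spanned nearly the whole range of both other groups. Of the 6 SHR-TMAO rats, 4 lay above every SHR-Water rat and 1, replicate 1, lay below every one.

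**Figure D1:**
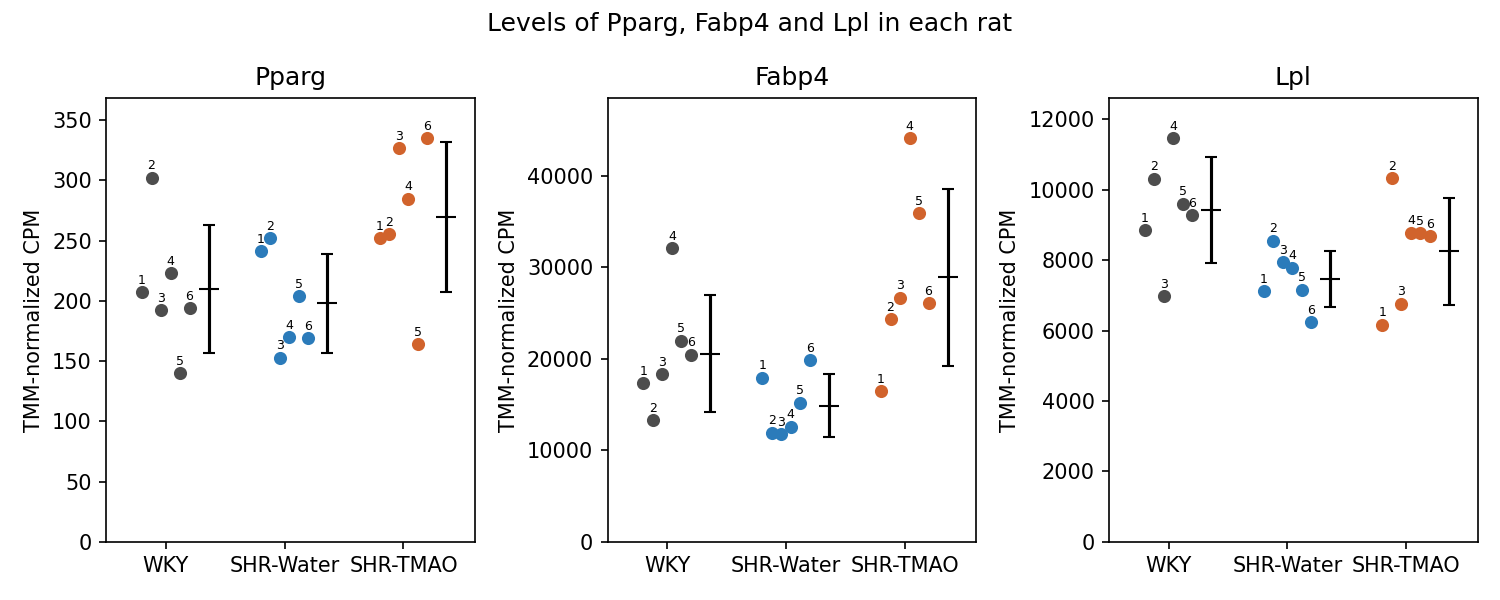
TMM-normalized CPM (linear axis from 0) of Pparg, Fabp4 and Lpl in each of the 18 rats; numbers beside the points are replicates, and the bars at the right of each group are the mean and SD of 6 rats. For Fabp4, 5 of 6 SHR-TMAO rats lie above every SHR-Water rat, and for each gene the groups overlap.

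The first comparison, SHR-Water against WKY, asks how the hypertensive strain differs from the normotensive one without TMAO. All 3 genes had lower fitted values in SHR-Water, and none passed the test. With edgeR's quasi-likelihood test at a Benjamini-Hochberg adjusted p under 0.05, 0 of the 3 genes were called, where 6.13% of the 13017 genes tested were. Lpl had a log2 fold change of -0.36 (standard error 0.16, 95% interval -0.70 to -0.02, edgeR adjusted p = 0.181). Its two-sided exact permutation test over the 924 splits of 6 against 6 rats gave an unadjusted p of 0.0260, where edgeR's unadjusted p was 0.0401. The mitochondrial share of counts was 14.9% ± 5.12 in WKY (SD, n = 6), 21.4% ± 5.43 for SHR-Water and 16.8% ± 3.53 for SHR-TMAO. Between this share and Lpl, Pearson's r over the 18 rats was -0.553 and Spearman's rho -0.445 (-0.509 for r without the 2 rats farthest from the median share), with r of -0.906, -0.132 and -0.0785 within WKY, SHR-Water and SHR-TMAO. Between the library total and Lpl, r was 0.286 over the 18 rats, and 0.824, -0.0445 and 0.301 within the groups in the same order. No test was made of these correlations. With the genes of the mitochondrial genome removed before scaling, the log2 fold change of Lpl was -0.33 (edgeR adjusted p = 0.184). Fabp4 had a log2 fold change of -0.49 (standard error 0.24, interval -1.004 to 0.03, edgeR adjusted p = 0.220), and 3 of 6 SHR-Water rats lay below every WKY rat. DESeq2, which called 10.2% of genes, called none of the 3, and limma voom, which called 36.1%, called Fabp4 (-0.58, adjusted p = 0.0227). Pparg differed by -0.10 on the log2 scale (standard error 0.18, interval -0.48 to 0.29, edgeR adjusted p = 0.756). Its sign was not stable: without WKY replicate 2, which had the highest Pparg value of its group, the log2 fold change was 0.06.

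The second comparison, SHR-TMAO against SHR-Water, asks what TMAO in the drinking water changed within the hypertensive strain. Fabp4 had the largest difference of the 3 genes, close to a doubling, but it did not pass edgeR's test. Its log2 fold change was 0.99 (standard error 0.24, 95% interval 0.47 to 1.51, edgeR unadjusted p = 0.00109, adjusted p = 0.0841), a 1.98-fold ratio. That difference was above those of 98.4% of the 12852 genes tested, and its p was at rank 160 from the smallest. Pparg had a log2 fold change of 0.48 (standard error 0.18, interval 0.09 to 0.86, edgeR adjusted p = 0.139). Lpl had 0.18 (standard error 0.15, interval -0.15 to 0.51, edgeR adjusted p = 0.473), an interval that leaves room for a higher or a slightly lower level under TMAO. The two-sided exact permutation test gave unadjusted p-values of 0.00649 for Fabp4, 0.0541 for Pparg and 0.346 for Lpl, where 0.00216 is the smallest that 6 rats against 6 allow. For Fabp4, r with the mitochondrial share was -0.440 over the 18 rats (rho -0.463, and r -0.455 without the 2 rats farthest from the median share), and -0.472, 0.364 and -0.839 within WKY, SHR-Water and SHR-TMAO. These correlations were not tested either. With the mitochondrial genes removed the log2 fold change of Fabp4 was 0.97 (edgeR adjusted p = 0.0890).

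No gene at all passed edgeR in this comparison (0% of those tested), although 25.0% of the genes, 3212, had an unadjusted p under 0.05. The call on Fabp4 therefore depended on the test. DESeq2 called 8.62% of 13696 genes, 1180 in number, and Fabp4 was among them, with a log2 fold change of 0.99 and an adjusted p of 0.00417. The authors' rule for DESeq2 also required an absolute log2 fold change of at least 1. Fabp4 fell just short of that limit, which 405 of the 1180 genes met. limma voom with sample weights called 31.9% of genes, 4103 in number, among them Fabp4 (log2 fold change 1.17, adjusted p = 0.00512) and Pparg (0.57, adjusted p = 0.0307). Single rats decided the edgeR call too. Fabp4 was called without SHR-TMAO replicate 1 (log2 fold change 1.11, edgeR adjusted p = 0.0148), when 1508 genes (11.6%) were, and without SHR-Water replicate 1 (1.05, edgeR adjusted p = 0.0304), when 1863 (14.3%) were. Lpl was called by none of these fits.

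The third comparison, SHR-TMAO against WKY, spans both strain and treatment. Again 0 of the 3 genes were called by edgeR, where 7.75% of the 12833 genes tested were. Fabp4 had a log2 fold change of 0.48 (standard error 0.27, 95% interval -0.09 to 1.06, edgeR adjusted p = 0.306), and Pparg 0.36 (standard error 0.19, interval -0.05 to 0.76, edgeR adjusted p = 0.281). Lpl had -0.20 (standard error 0.18, interval -0.58 to 0.18, edgeR adjusted p = 0.550). Fabp4 passed limma voom, at 0.58 with an adjusted p of 0.0483, where 20.0% of genes passed. DESeq2 called none of the 3 (10.9% of genes). Side by side, the fitted values of Fabp4 were -0.49, 0.99 and 0.48 in the 3 comparisons in this order, those of Pparg -0.10, 0.48 and 0.36, and those of Lpl -0.36, 0.18 and -0.20. Each pair of comparisons shares one group of rats, so these values are not independent of one another.

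**Figure D2:**
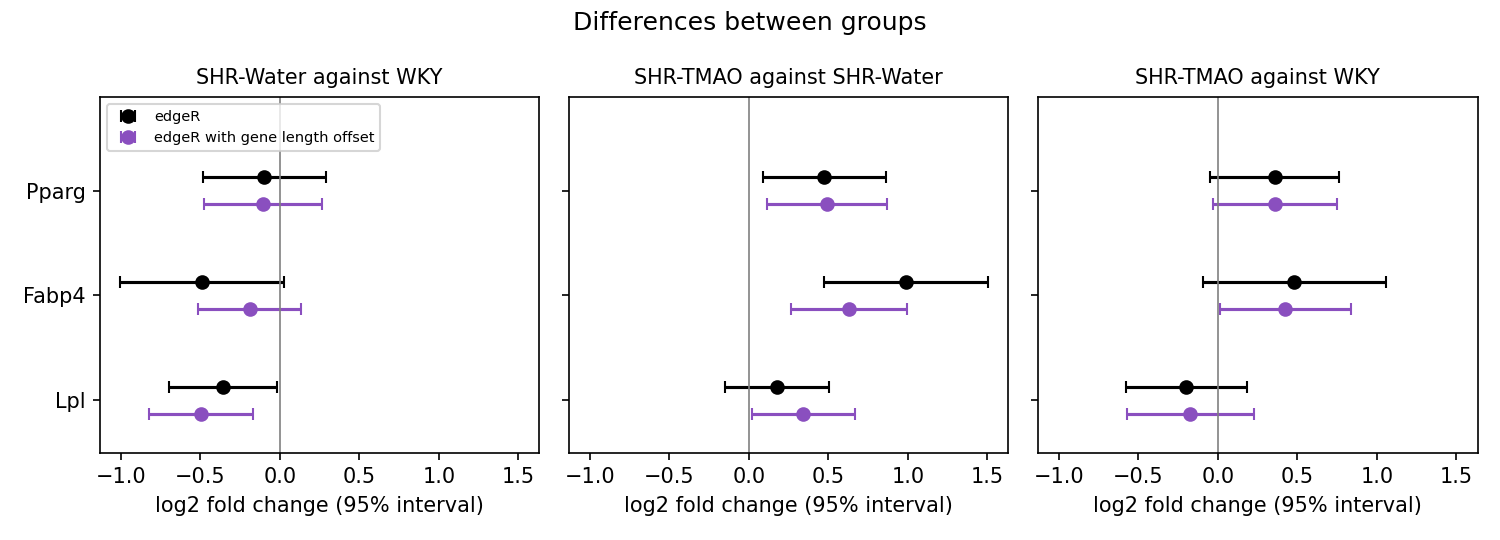
Log2 fold changes of Pparg, Fabp4 and Lpl in the 3 comparisons with 95% intervals, from edgeR (black) and from edgeR with an offset for the gene length trend of each library (purple). With the offset, Fabp4 moves from 0.99 to 0.63 in SHR-TMAO against SHR-Water, while Pparg stays at 0.48 and 0.49.

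The level of Fabp4, a short gene, moved with the gene length trend. Across all 18 rats, Pearson's r between log2(TMM-normalized CPM + 0.5) of Fabp4 and the trend was -0.892 and Spearman's rho was -0.897, and r was -0.871 without the 2 rats farthest from the median trend. Within groups of 6 rats r was -0.979 (WKY), -0.929 (SHR-Water) and -0.873 (SHR-TMAO). These are descriptions with no test, and both measures come from the same libraries. For Pparg, r with the trend was -0.167 over the 18 rats, and 0.467, -0.288 and 0.197 within the groups in the same order. For Lpl it was -0.252 over the 18 rats, and -0.347, 0.792 and -0.656 within the groups, so its sign differed between them. The mean trend was 0.188 ± 0.280 (SD, n = 6) for the SHR-Water libraries and -0.160 ± 0.166 for those of SHR-TMAO, and the part of this in the Fabp4 difference was not tested beyond the offset given next. The SHR-TMAO rat with the lowest Fabp4, replicate 1, had the highest trend of its group, 0.108. Replicate 4, with the highest Fabp4, had the lowest, -0.349.

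**Figure D3:**
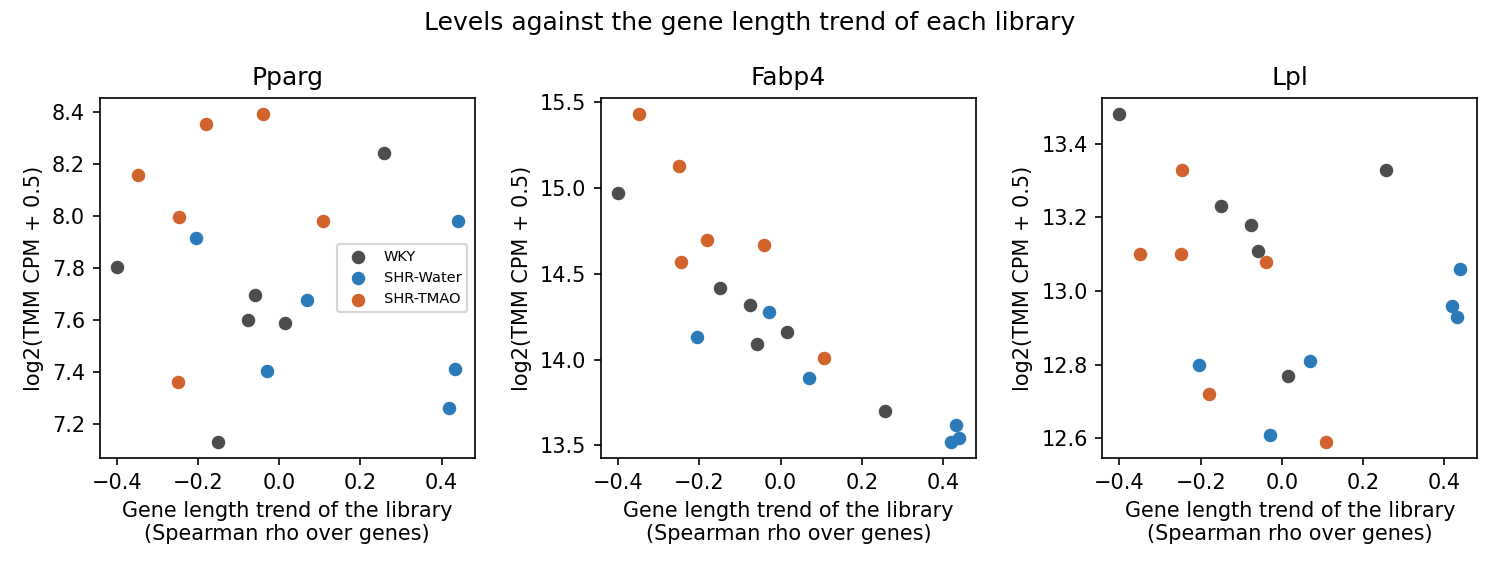
Level of each gene, as log2(TMM-normalized CPM + 0.5), against the gene length trend of the same library, as Spearman's rho over 13325 genes; each point is a rat. Fabp4 is lower where the trend is higher in all 3 groups (r = -0.892 over 18 rats), while for Pparg and Lpl the sign of r differs between groups.

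Other genes as short as Fabp4 leaned the same way, by less. In SHR-TMAO against SHR-Water, the 600 tested genes whose exon length was within 0.8 to 1.25 times that of Fabp4 had a median log2 fold change of 0.37, against -0.01 over all genes, and 4.17% of them had a higher value than Fabp4. For Lpl, the longest of the 3, the median over 2800 genes of like length was -0.13. Of these, 14.2% had a higher value than Lpl. For Pparg the median over 3408 genes was 0.01, and 6.16% had a higher value than Pparg. With a smooth trend on gene length fitted in each library and used as an offset in edgeR, Fabp4 had a log2 fold change of 0.63 (standard error 0.17, interval 0.27 to 1.00, adjusted p = 0.102), Pparg 0.49 (adjusted p = 0.149) and Lpl 0.34 (standard error 0.15, interval 0.02 to 0.67, adjusted p = 0.209). That trend was fitted without regard to group, so the offset also takes out any difference between groups that follows gene length, whatever its source. No gene passed edgeR with this offset. DESeq2 with the offset, which called 6.40% of genes, called Fabp4 (0.63, adjusted p = 0.00556) but not Pparg (adjusted p = 0.0789) or Lpl (adjusted p = 0.115). limma voom with the offset, which called 23.0%, called all 3, with log2 fold changes of 0.71 for Fabp4, 0.59 for Pparg and 0.40 for Lpl and adjusted p-values of 0.0110, 0.0323 and 0.0407.

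Between SHR-Water and WKY, the 606 tested genes of like length to Fabp4 had a median log2 fold change of -0.31. Of these, 70.1% had a higher value than Fabp4. For Lpl the median over 2824 such genes was 0.11, and 86.65% had a higher value than Lpl. In this comparison the offset moved Fabp4 and Lpl in opposite directions. Fabp4 had a log2 fold change of -0.19 with it (standard error 0.15, interval -0.52 to 0.14, edgeR adjusted p = 0.451), against -0.49 without it. Lpl had -0.50 (standard error 0.15, interval -0.82 to -0.17, edgeR adjusted p = 0.0688), and edgeR with the offset called 6.97% of genes but none of the 3. DESeq2 and limma voom with the offset called Lpl lower in SHR-Water, with adjusted p-values of 0.00614 and 0.0255, where they called 12.5% and 32.6% of genes. Between SHR-TMAO and WKY the offset left the 3 values at 0.42 for Fabp4, 0.36 for Pparg and -0.17 for Lpl. None of them was called by edgeR or DESeq2 with the offset, which called 9.94% and 15.4% of genes, and limma voom with the offset, which called 22.1%, called Fabp4 (0.49, adjusted p = 0.0307).

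**Figure D4:**
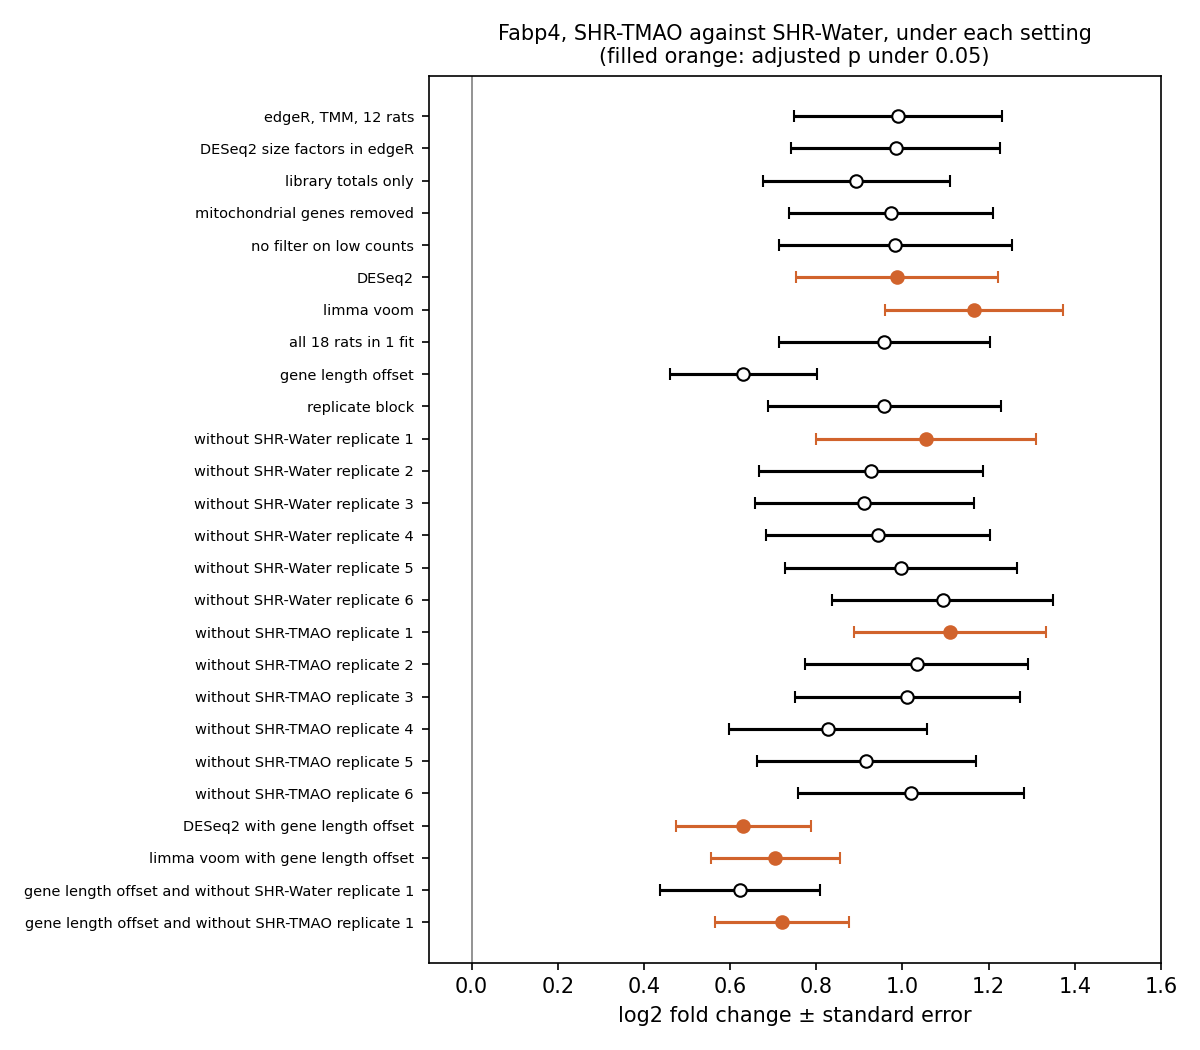
Log2 fold change of Fabp4, SHR-TMAO against SHR-Water, with its standard error under each setting; orange filled points have an adjusted p under 0.05. The values run from 0.62 to 1.17, and whether the adjusted p was under 0.05 changed with the tool and with the rat left out.

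The ratio of 2 genes within a library is free of the scaling factor of that library, but not of its gene length trend, and the ratios below were not corrected for it. With the length offset, the log2 fold changes of Fabp4 and Lpl between SHR-TMAO and SHR-Water were 0.63 and 0.34, against 0.99 and 0.18 without it. The ratio of Fabp4 to Lpl in FPKM was 12.1 ± 2.95 in WKY (SD, n = 6), 11.3 ± 3.86 for SHR-Water and 19.3 ± 5.57 for SHR-TMAO. Its values ran from 7.69 to 17.5 in SHR-Water and from 12.97 to 27.7 in SHR-TMAO, so the groups overlapped. The ratio of Fabp4 to Pparg was 361 ± 142, 266.5 ± 77.5 and 398 ± 205 in the same order, and that of Lpl to Pparg was 29.3 ± 7.85, 24.3 ± 5.22 and 20.4 ± 7.67.

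**Figure D5:**
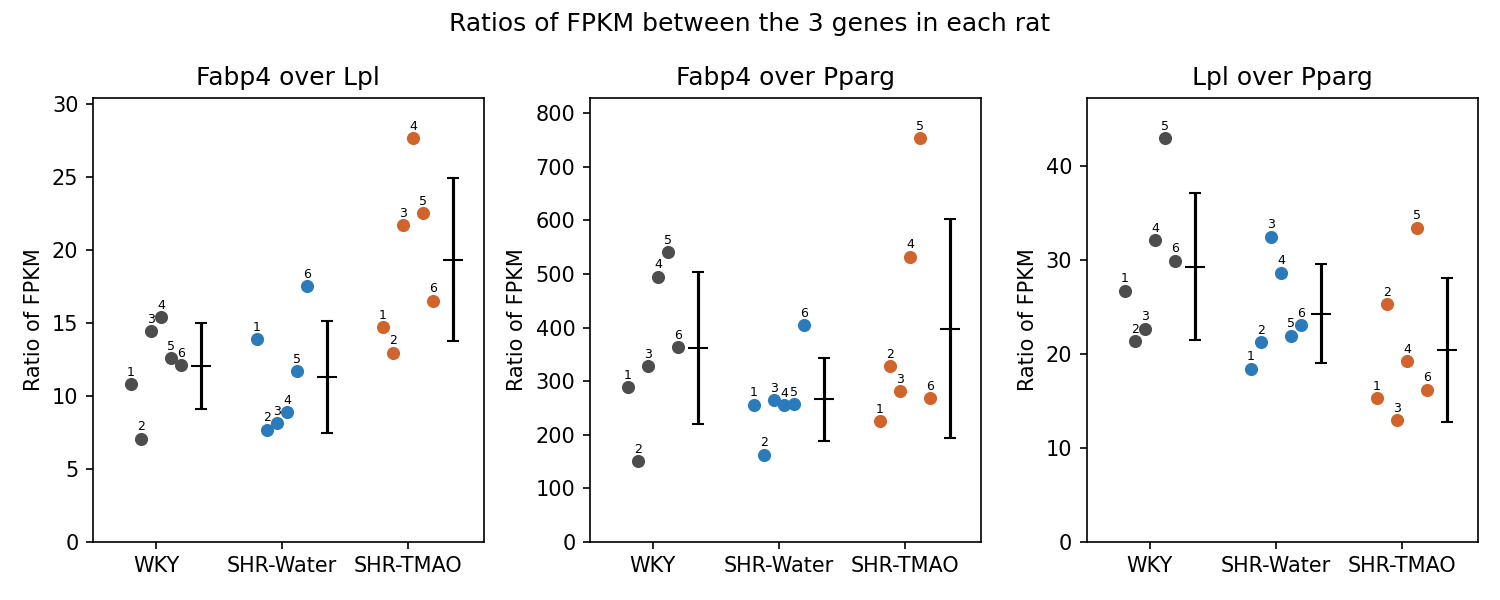
Ratios of FPKM between the 3 genes in each rat (linear axis from 0), with the mean and SD of 6 rats at the right of each group; numbers are replicates. The ratio of Fabp4 to Lpl runs from 12.97 to 27.7 in SHR-TMAO and from 7.69 to 17.5 in SHR-Water.

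Although the 3 genes are known as parts of one programme, their levels were weakly correlated from rat to rat. Over the 18 rats, Pearson's r of log2(TMM-normalized CPM + 0.5) was 0.270 between Fabp4 and Lpl, 0.215 between Fabp4 and Pparg and 0.0623 between Lpl and Pparg, with Spearman's rho of 0.290, 0.203 and 0.0795. Within SHR-Water, Fabp4 and Lpl ran against each other, with r = -0.932 over 6 rats. In the same 6 rats Fabp4 had r = -0.929 with the gene length trend and Lpl r = 0.792. In WKY and SHR-TMAO, r between Fabp4 and Lpl was 0.373 and 0.525. Between Fabp4 and Pparg, r was -0.418, 0.1025 and -0.185 within WKY, SHR-Water and SHR-TMAO. Between Lpl and Pparg it was 0.304, 0.243 and -0.198 in the same order, so the sign differed between groups for both pairs. The libraries are shared by all genes, and no test was made of these values.

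The genes whose pattern over the 18 rats was most like each of the 3 were sought among the other 13324 expressed genes by the same Pearson's r. For Fabp4, 535 genes had an r above 0.8, with a median exon length of 991 bases against 2316.5 over all genes. The most alike was ENSRNOG00000028884, with r = 0.975 and 477 bases of exon. Its log2 fold change between SHR-TMAO and SHR-Water, where edgeR called no gene at all, was 1.17 (edgeR adjusted p = 0.0841). It was not called by edgeR in the 2 comparisons with WKY, where 6.13% and 7.75% of genes were. For Lpl, 8 genes had an r above 0.8, led by ENSRNOG00000048723 with r = 0.894 and 3242 bases of exon. That gene was not called in the 2 comparisons with WKY either. Its log2 fold changes there were -0.36 for SHR-Water and -0.19 for SHR-TMAO (edgeR adjusted p = 0.0840 and 0.4225). For Pparg no gene reached 0.8, and the highest r was 0.754. Of the 23 genes starting within 500 kb of Pparg, 12 or 13 were tested and 0 were called by edgeR in any comparison, where 6.13%, 0% and 7.75% of all genes were called in the 3 comparisons in order. Of the 18 near Fabp4, 7 were tested and 1 was called, between SHR-TMAO and WKY. Of the 10 near Lpl, 4 were tested, and 1 was called in each of the 2 comparisons with WKY. Between SHR-TMAO and SHR-Water edgeR called no gene at all, so no neighbour could be called there.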

How the data were processed

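RNA-seq counts were available for 18 rats, 6 per group, grouped by the sample titles. For each gene the authors counted reads by featureCounts 1.6.3 over the exons of Ensembl release 96 (Rnor_6.0), reverse strand, and the deposited counts are whole numbers, neither normalized nor pooled. The counting command requested neither multi-mapping reads nor reads on several genes. The submitters' processing notes also name cutadapt 2.5 and HISAT2 2.1.0. Libraries held 10774133 to 18874161 counts.

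Groups were compared with edgeR 4.0.16 in R 4.3.3 (TMM, filterByExpr, quasi-likelihood test on all genes of the 2 groups, Benjamini-Hochberg adjustment over all genes tested). Standard errors were derived from the F statistic. DESeq2 1.42.0, limma 3.58.1 (voom with sample weights), other scalings, no filter, a gene length offset (lowess, span 0.5), a replicate block, and leaving out each rat were alternatives. Exact permutation tests, two-sided, used log2(TMM CPM + 0.5) in Python 3.11.15. edgeR (with and without the offset), DESeq2 and limma voom were also run on simulated counts with known differences. Those counts held no gene length trend, so they cannot show how the fits deal with one. No 2 libraries of a group agreed within sampling noise (lowest chi-square per degree of freedom 13.2, WKY replicates 1 and 3).

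The 3 genes and the pathway and cell type lists were chosen with earlier results of these data known. The genes named were the 3, and the most alike gene by Pearson's r for Fabp4 and Lpl. At most 2 such identifiers were to be printed, so that of Pparg is given by its r alone. The lists, fixed by symbol, were not used here because no table paired the file's identifiers with symbols, so the tissue label could be checked only by the 3 genes themselves. Promoter sequences are from RefSeq (GRCr8), where 1 of the 3 genes, Pparg, was matched; Fabp4 and Lpl were not.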

Additional observations from a re-analysis of the deposited data

How the results depend on the processing

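Of 222 alternative values of the 3 genes, 205 kept their direction and their side of the threshold, 15 passed it where edgeR had not, 1 no longer passed it and 1 changed sign. The exact permutation tests were set against edgeR's unadjusted p, and all other settings against its adjusted p. The value that no longer passed was Pparg between SHR-TMAO and SHR-Water in the exact permutation test (0.43, unadjusted p = 0.0541, against edgeR's 0.0190). The cause was not tested. Combined settings (a gene length offset with DESeq2, with limma voom or with a rat left out) were chosen after seeing the data.

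Between SHR-TMAO and SHR-Water, Fabp4 passed with DESeq2 (log2 fold change 0.99), limma voom (1.17), both with the offset (0.63 and 0.71), and edgeR with the offset and without SHR-TMAO replicate 1 (0.72; 0.62 without SHR-Water replicate 1, not called). Pparg passed with limma voom (0.57, and 0.59 with the offset), and Lpl with limma voom and the offset (0.40). Between SHR-Water and WKY, Fabp4 passed with limma voom (-0.58), and Lpl, with the offset, with DESeq2 (-0.50) and limma voom (-0.41). Between SHR-TMAO and WKY, Fabp4 passed with limma voom (0.58, and 0.49 with the offset). With 1 rat left out, Fabp4 stayed between 0.83 and 1.11, -0.56 and -0.31, and 0.32 and 0.66 in the 3 comparisons in this order; Pparg between 0.40 and 0.58, -0.19 and 0.06 (the sign change, without WKY replicate 2), and 0.28 and 0.49; and Lpl between 0.10 and 0.25, -0.43 and -0.27, and -0.26 and -0.12. Library totals alone moved the median of all genes to -0.13 between SHR-TMAO and SHR-Water, with Fabp4 at 0.89, Pparg at 0.38 and Lpl at 0.04.

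Genes called by edgeR between SHR-TMAO and SHR-Water numbered 0, against 1180 with DESeq2, 4103 with limma voom, 818 and 2955 with these and the offset, 1 with all 18 rats in 1 fit, and 0 to 1863 with 1 rat left out. SHR-Water replicate 1 gave 1863 and SHR-TMAO replicate 1 gave 1508 when left out, SHR-TMAO replicate 2 gave 2, and the first 2 gave 710 and 1169 with the offset. Between SHR-Water and WKY, 798 became 445 with a log2 fold change of at least 1, 1626 with DESeq2 (1626 with the offset), 4697 with limma voom (4246 with the offset) and 520 to 2504 with 1 rat left out (520 without SHR-Water replicate 4, 1454 without SHR-Water replicate 1, 2504 without WKY replicate 2). Between SHR-TMAO and WKY, 995 became 464, 1699 (1969), 2566 (2834) and 644 to 1563 (644, 661, 1563 and 647 without WKY replicates 1, 3, 4 and 6, and 658 without SHR-TMAO replicate 6). No label says that a replicate number marks rats with a shared origin, and same-numbered rats deviated together (r over 0.1) in 0, 5 and 1 of 6 pairs between SHR-TMAO and SHR-Water, SHR-Water and WKY, and SHR-TMAO and WKY. In none of the 3 did all 6 pairs do so, and the numbers were not taken as a pairing. With the replicate number as a block, 0, 1070 and 647 genes were called, and of the 3 genes none was, with Fabp4 at 0.96, -0.46 and 0.47.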

Other observations

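The 3 genes differed in how much they varied among rats of one group. On the log2(TMM-normalized CPM + 0.5) scale, the SD of Lpl was 0.16 in SHR-Water, smaller than that of most expressed genes, since 11.6% of 13325 genes had a smaller one. In WKY and SHR-TMAO its SD was 0.24 and 0.28, with 24.8% and 43.4% of genes below it. The SD of Fabp4 was 0.42 in WKY, 0.32 for SHR-Water and 0.49 for SHR-TMAO, where 79.8% of genes had a smaller one. That of Pparg was 0.36, 0.30 and 0.37. No rat stood apart from the other 5 of its group in the level of a gene or in a ratio of 2 genes, by a criterion on the gap to the nearest rat, over 18 groups of values examined.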
